A study of Mus musculus with 30 samples.

Results

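The genes described here make, receive and break down prostaglandins in mouse lung organoids. They were the 10 genes Ptgs1, Ptgs2, Ptges, Ptgis, Ptgds, Ptger1, Ptger2, Ptger3, Ptger4 and Hpgd, taken by their symbols from the 55487 genes of the count tables. Organoids were grown from 300000 lung epithelial cells that carry the surface protein Epcam, isolated from wild-type C57BL/6J mice of both sexes older than 8 weeks, together with 300000 CCL206 cells, a mouse lung fibroblast line whose division had been stopped with mitomycin C. For 72 h the cultures received vehicle, EC (an exacerbation cocktail of TNF-α, IL-6 and IL-1β with a chemokine that the labels give as IL-8 and the study's methods as KC for mouse cells), IPFc (a mixture of TSLP, TNF-α, TGF-β, CCL2 and the interleukins IL-33, IL-13, IL-8, IL-4 and IL-1β) or TGF-β alone at 2 ng/ml. Beads against Epcam then split each culture into an epithelial (Epcam+) and a fibroblast (CCL206) fraction, and the RNA of each was sequenced in bulk. The epithelial cells of 4 mice gave 30 libraries, 4 in each of the 8 groups of fraction and treatment except for 3 in the epithelial TGF-β group (no mouse 1) and 3 in the fibroblast vehicle group (no mouse 2). The fibroblasts were 1 cell line throughout, so that the mouse number of a fibroblast library names its co-cultured epithelium and not a fibroblast donor.

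Prostaglandins are short-lived lipid signals. Phospholipases free arachidonate from membranes, the cyclooxygenases encoded by Ptgs1 (the constitutive form) and Ptgs2 (the inducible form) convert it into prostaglandin H2, and terminal synthases turn that intermediate into the individual prostaglandins: Ptges makes prostaglandin E2, Ptgis makes prostacyclin and Ptgds makes prostaglandin D2. Prostaglandin E2 acts through the receptors encoded by Ptger1 to Ptger4, of which those of Ptger2 and Ptger4 raise cyclic AMP, and Hpgd starts its breakdown. In the lung, prostaglandin E2 is known for holding back fibroblast activation and for acting on epithelial repair.

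The libraries held 5113828 to 20317181 counted reads, with the fewest in the fibroblast EC library of mouse 1 and the next fewest, 8275413, in an epithelial TGF-β library. The split into fractions was incomplete, and unequally so between treatments. The level of 12 fibroblast markers in an epithelial library, as a percent of their level in the fibroblast library of the same culture, was 5.59 ± 2.18 (SD, n = 4) under vehicle, 10.7 ± 3.98 (n = 4) under EC, 10.7 ± 4.97 (n = 4) under IPFc and 27.1 ± 2.45 (n = 3) under TGF-β. For fibroblast libraries 11 or 12 of 12 epithelial markers were used in the same way, with the mean of the epithelial TGF-β libraries as partner for TGF-β mouse 1. Their median level, as a percent of the epithelial partner, was 23.9 ± 10.5 (SD, n = 3) under vehicle, 49.2 ± 13.6 (n = 4) under EC, 23.5 ± 11.1 (n = 4) under IPFc and 2.66 ± 1.78 (n = 4) under TGF-β. These percentages are called the fibroblast share and the epithelial share below. They moved with treatment, so each result is given with the level that this share of the partner library would supply, and with the test after that level was subtracted. The partner library was itself mixed and was used as measured, so the level subtracted includes some of the receiving fraction's own RNA. A marker that the receiving cells switched on themselves would count into the share in the same way. The summed level of the 12 epithelial markers ranged from 6435 to 19770 counts per 1000000 counted reads (CPM) in epithelial and from 118 to 9468 CPM in fibroblast libraries, so that epithelial TGF-β libraries (6435 to 9145 CPM) overlapped with fibroblast EC (6457 to 9468 CPM) and fibroblast vehicle libraries (5222 to 7976 CPM), the latter being the reference of every fibroblast comparison. Markers of other cells were low: 12 immune markers summed to 6.60 to 18.2 CPM, 5 mast cell markers to at most 0.315 CPM and 7 endothelial markers to at most 10.03 CPM. The 4 mesothelial markers summed to 101.5 to 937 CPM, with Upk3b without reads in 4 of the 8 groups and present in the others. In epithelial EC libraries Wt1 had no reads either, so that 2 of the 4 markers carried the sum of 602 to 923 CPM there. The 4 smooth muscle markers moved with TGF-β. They summed to 0.321 to 1.77 CPM in epithelial vehicle and 11.96 to 20.7 CPM in epithelial TGF-β libraries (3 of 4 called higher, median log2 fold change 4.34), and to 6.41 to 13.7 and 23.5 to 32.4 CPM in the fibroblast libraries of these treatments (2 of 4 called higher, median 2.27), and each of the 4 had reads in every group. The part of mesothelial and smooth muscle cells in the results below was not tested. Subtraction also widened the typical variation between libraries of a group, from 12.7 to 19.3% in epithelial and from 16.9 to 54.9% in fibroblast fits, so a call could be lost without a smaller fold change. In such bulk samples fewer cells of a type and less RNA per cell cannot be told apart.

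Of the 10 members, 7 had enough reads to test. The promoters of Ptgs2, Ptges and Ptgs1 are shown because transcripts of these genes carried most of the reads and moved apart from one another under TGF-β. Each is the 250 bases before the transcription start in RefSeq (GRCm38.p6), 5′ to 3′ on the gene's strand, with capitals marking a match to TTNNGNAA, the letters searched for C/EBP factors.
Ptgs2 (chr1:150099781-150100030, + strand): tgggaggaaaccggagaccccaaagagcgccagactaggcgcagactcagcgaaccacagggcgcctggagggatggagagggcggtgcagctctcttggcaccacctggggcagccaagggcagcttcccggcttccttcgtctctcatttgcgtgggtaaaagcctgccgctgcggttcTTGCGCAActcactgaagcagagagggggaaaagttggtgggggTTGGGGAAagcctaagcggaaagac
Ptges (chr2:30903298-30903547, − strand): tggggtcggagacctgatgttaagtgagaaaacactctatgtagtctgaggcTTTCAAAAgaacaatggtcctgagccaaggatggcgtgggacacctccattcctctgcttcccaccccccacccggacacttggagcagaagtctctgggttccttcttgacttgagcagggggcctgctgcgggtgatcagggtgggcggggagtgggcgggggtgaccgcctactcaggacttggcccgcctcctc
Ptgs1 (chr2:36230176-36230425, + strand): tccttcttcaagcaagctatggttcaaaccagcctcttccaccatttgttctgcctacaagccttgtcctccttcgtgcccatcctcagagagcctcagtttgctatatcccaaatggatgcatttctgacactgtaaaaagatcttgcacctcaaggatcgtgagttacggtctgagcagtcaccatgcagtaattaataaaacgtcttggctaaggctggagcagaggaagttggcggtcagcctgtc
The Ptgs2 promoter held this motif at 2 places, 69 and 25 bases before the start, the Ptges promoter held it once, on the opposite strand, 198 bases before the start, and the Ptgs1 promoter did not hold it. On either strand, 36.8% of 32817 promoter windows of this length held the motif, so a match is common. None of the 3 windows held the κB motif (in 3.9% of windows), TGACG (17.7%), TGACGTCA, which contains it (1.55%), TGANTCA (6.75%) or TATAAA (12.4%). Bases further upstream and after the RefSeq start were not searched, so these genes may hold such motifs there. The Ptgs1 and Ptges windows belong to starts inside the full spans of these genes on chromosome 2, 36216742 to 36258593 and 30889471 to 30931020. Promoters were matched for 8 of the 10 members.

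Counted over the members, TGF-β in the epithelial fraction gave the most changes. The test was edgeR's quasi-likelihood test with mouse as a block and Benjamini-Hochberg adjustment over all genes, called at an adjusted p under 0.05. In the epithelial fraction, Ptgs2 and Ptges rose under EC (2 of 7 tested members, against 4.41% of all tested genes called in either direction), Ptgis rose under IPFc (1 of 7, against 4.1%), and under TGF-β Ptgs1, Ptgs2, Ptgis and Ptger1 rose and Ptges fell (5 of 7, against 41.1%). After subtraction of the fibroblast part 3 of these 5 were called, Ptgis and Ptger1 being lost, and 1 was called under EC (Ptges) and 0 under IPFc. In fibroblasts, Ptges rose under EC (1 of 6, against 7.11%), no member was called under IPFc (0 of 6, against 0.449%, with 2 at an unadjusted p under 0.05 and 0 by DESeq2), and under TGF-β Ptgs1 rose and Ptges fell (2 of 6, against 19.2%), of which only the Ptges fall was called after subtraction. No member was called under fibroblast EC after subtraction. The median log2 fold change of the 7 members under epithelial TGF-β was 1.16 before subtraction, beside 0.03 over all 18024 tested genes. This median is the value of Ptger1, which was 0.72 without a call after subtraction (adjusted p = 0.57). For the 6 members tested under fibroblast TGF-β the median was -0.16, beside -0.02 over 18048 genes.

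**Figure D1:**
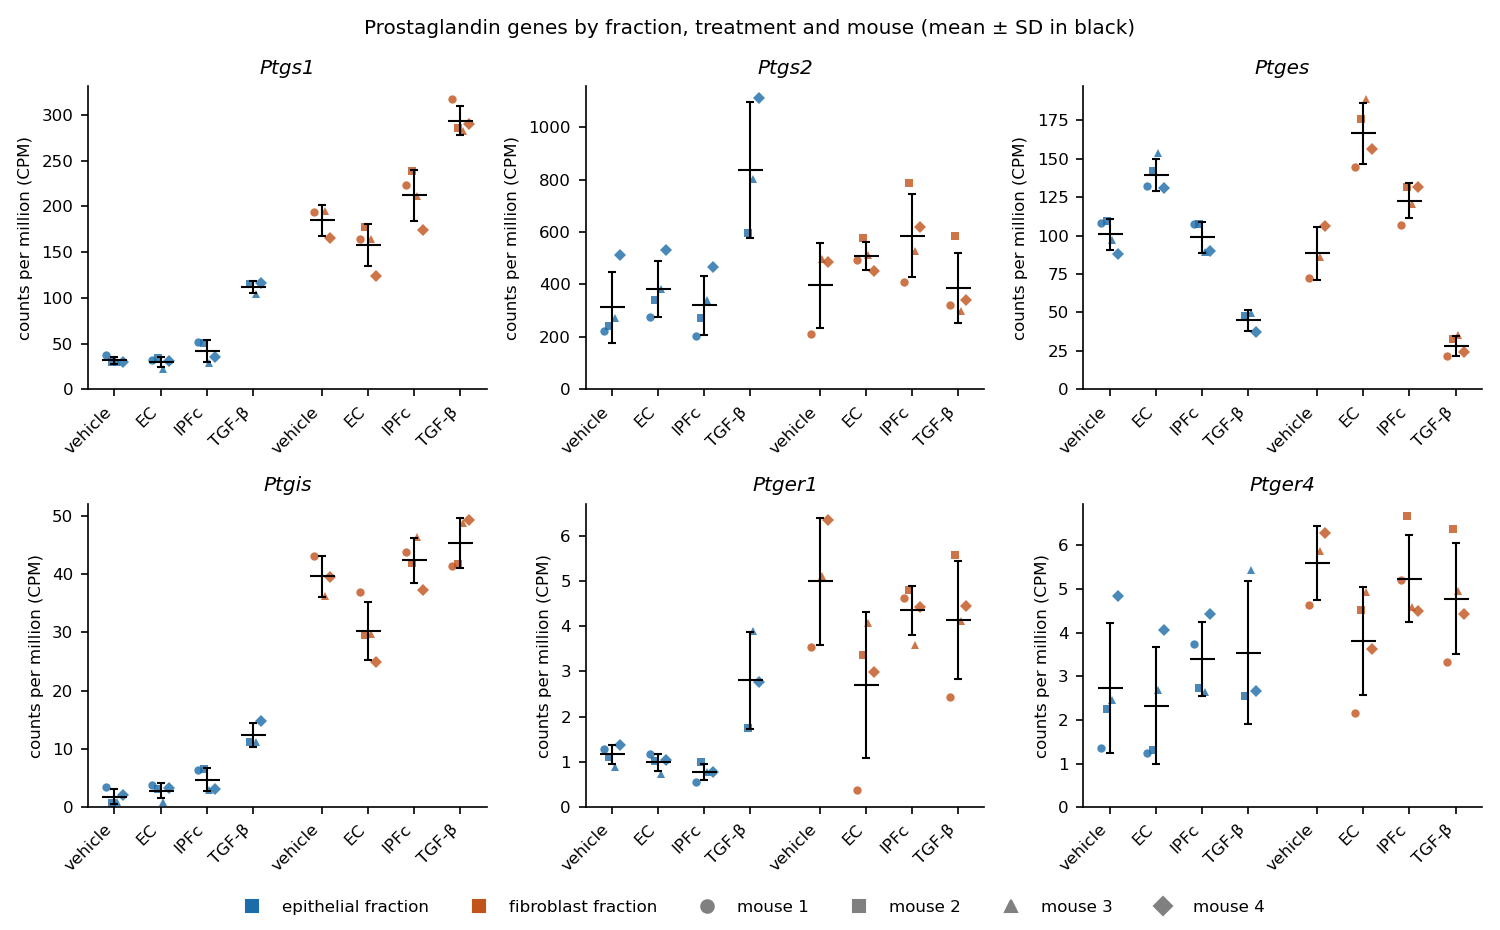
CPM of 6 members in each library (symbol, mouse; colour, fraction) with the mean ± SD of each group in black; n = 3 or 4 libraries a group. Ptges is highest under EC and lowest under TGF-β in both fractions, Ptgs2 is highest in epithelial TGF-β libraries (594 to 1110 CPM), and Ptgs1 and Ptgis sit higher in fibroblast than in epithelial libraries.

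Ptgs1, the constitutive cyclooxygenase (chromosome 2), was mainly a fibroblast transcript and rose with TGF-β in both fractions. In fibroblast libraries it stood at 194, 195 and 166 CPM under vehicle, at 164, 178, 165 and 125 CPM under EC, at 223, 239, 211 and 175 CPM under IPFc and at 317, 286, 282 and 291 CPM under TGF-β. All TGF-β libraries lay above all others, and the EC and vehicle ranges overlapped. The TGF-β rise in fibroblasts was 1.69-fold (log2 fold change 0.76 ± 0.12 SE, adjusted p = 0.000146, higher in 3 of 3 mice). The fibroblast TGF-β libraries also held the lowest epithelial share, and after the epithelial part was subtracted the log2 rise was 0.44 ± 0.12, with an adjusted p of 0.084.

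In epithelial libraries Ptgs1 was at 37.9, 30.4, 30.2 and 29.8 CPM under vehicle and at 115, 105 and 117 CPM under TGF-β, with no overlap, a 3.43-fold rise (log2 1.78 ± 0.13, adjusted p = 8.06e-10, 3 of 3 mice). The fibroblast share by itself would supply 71.2 to 86.8 CPM of this TGF-β level, or 65.6 to 74.5% of what was measured, against 7.73 to 17.1 CPM under vehicle. After subtraction 42.1 to 53.5 CPM remained under TGF-β, against 22.6 to 23.2 CPM under vehicle, and the rise was still called, at 0.89 ± 0.19 on the log2 scale (adjusted p = 0.00248). EC and IPFc gave epithelial log2 differences of -0.08 and 0.35 that did not pass (adjusted p = 0.856 and 0.12).

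Ptgs2, the inducible cyclooxygenase (chromosome 1, 150100031 to 150108234), had more reads than any other member, and TGF-β raised it in the epithelial fraction. Epithelial vehicle libraries held 223, 243, 273 and 513 CPM for mice 1 to 4, EC libraries 277, 342, 382 and 531 CPM, IPFc libraries 203, 274, 340 and 466 CPM, and TGF-β libraries 594, 803 and 1110 CPM for mice 2 to 4. Mouse 4 was the highest in each epithelial group, and every TGF-β library exceeded every other epithelial library. The TGF-β rise was 2.28-fold (log2 1.19 ± 0.10, adjusted p = 4.87e-09, 3 of 3 mice). The fibroblast partner libraries were lower, at 298 to 583 CPM, and their share would supply 75.2 to 153 CPM, 9.15 to 25.8% of the epithelial TGF-β level. After subtraction the rise was 1.39 ± 0.12 on the log2 scale (adjusted p = 2.17e-06).

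Under EC, epithelial Ptgs2 was 1.29-fold higher (log2 0.37 ± 0.09, adjusted p = 0.0169) and higher in 4 of 4 mice, although the groups overlapped because mouse 4 was high in both. This call was lost without the mouse block (adjusted p = 0.766), without mouse 1, mouse 2 or mouse 3, and after subtraction of the fibroblast part (0.30 ± 0.11, adjusted p = 0.29). IPFc left an epithelial log2 difference of 0.05 (95% interval -0.12 to 0.22).

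In fibroblasts Ptgs2 differed between libraries of 1 group as widely as between treatments. Vehicle libraries held 211, 496 and 484 CPM, EC libraries 493, 577, 511 and 451 CPM, IPFc libraries 410, 786, 529 and 619 CPM, and TGF-β libraries 322, 583, 298 and 340 CPM. The ranges of all 3 treatments overlapped that of vehicle, and no comparison passed (log2 0.34, 0.47 and -0.06, adjusted p = 0.363, 0.745 and 0.9). The TGF-β difference had a 95% interval of -0.48 to 0.36. A lncRNA, Ptgs2os, overlaps the start of Ptgs2 on the other strand, and whether counting used the strand was not given in the sources used here.

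Ptges, the inducible prostaglandin E2 synthase (chromosome 2, 30889471 to 30931020), moved the same way in both fractions, up under EC and down under TGF-β. Epithelial libraries held 108, 109, 97.2 and 88.0 CPM under vehicle, 132, 142, 153 and 131 CPM under EC, 108, 108, 89.6 and 90.1 CPM under IPFc, and 47.6, 49.4 and 37.3 CPM under TGF-β. The EC libraries all lay above and the TGF-β libraries all below those of vehicle, while IPFc overlapped vehicle throughout. The EC rise was 1.43-fold (log2 0.51 ± 0.09, adjusted p = 0.00133, 4 of 4 mice), and the TGF-β level was 2.39-fold lower than vehicle (log2 -1.26 ± 0.11, adjusted p = 7.82e-09, 3 of 3 mice). Both calls held after subtraction, at 0.46 ± 0.09 (adjusted p = 0.0178) and -1.12 ± 0.11 (adjusted p = 4.88e-06).

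Fibroblast libraries held 72.3, 86.2 and 106 CPM of Ptges under vehicle, 145, 176, 189 and 156 CPM under EC, 107, 132, 121 and 132 CPM under IPFc, and 21.9, 32.8, 35.2 and 24.1 CPM under TGF-β. No library of any treatment overlapped the vehicle range, and the order was TGF-β, vehicle, IPFc, EC. The EC rise was 1.92-fold (log2 0.94 ± 0.15, adjusted p = 0.0013), the TGF-β level was 2.96-fold lower (log2 -1.57 ± 0.15, adjusted p = 5.16e-07), and the IPFc difference of 0.47 ± 0.15 did not pass (adjusted p = 0.339), although 3 of 3 mice were higher. After the epithelial part was subtracted the TGF-β fall was -1.59 ± 0.21 (adjusted p = 0.00209). The epithelial share of the fibroblast EC libraries would supply 53.9 to 90.4 CPM of Ptges, and after subtraction the EC difference was 1.06 ± 0.21 on the log2 scale with an adjusted p of 0.156.

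**Figure D2:**
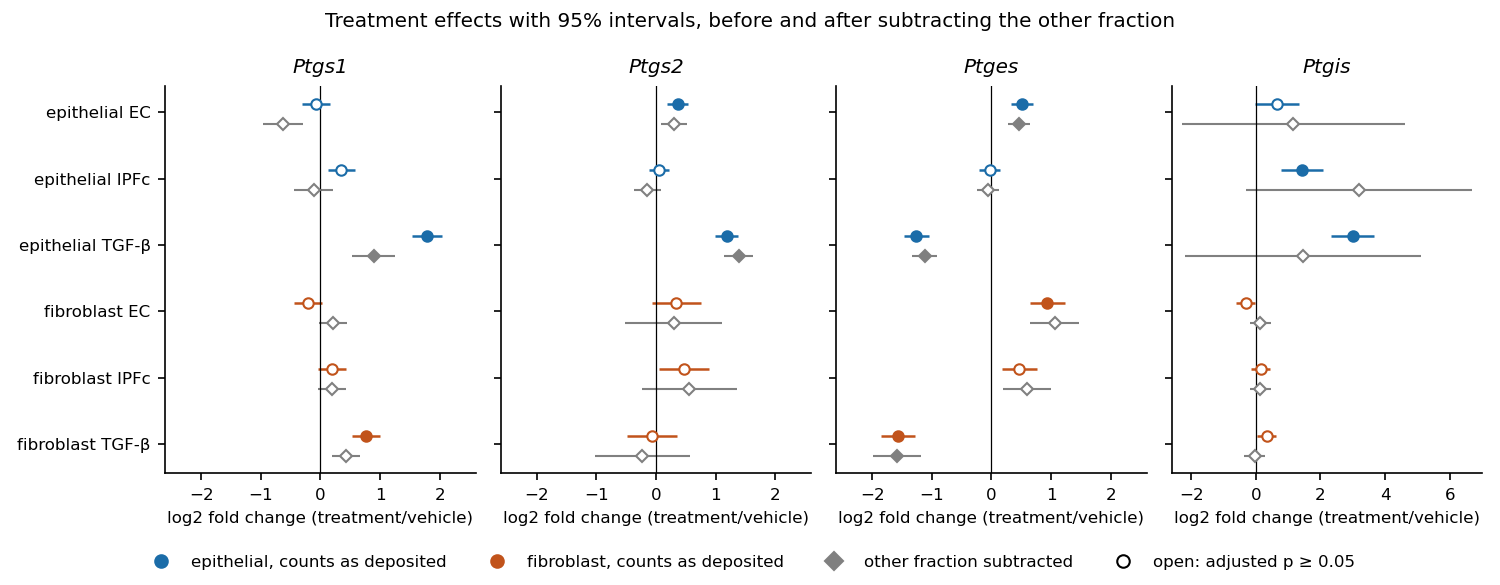
Log2 fold change of each treatment against vehicle with its 95% interval for 4 members, from the counts as deposited (circles, colour by fraction) and after subtraction of the other fraction (grey diamonds); filled symbols have an adjusted p under 0.05. The epithelial TGF-β effects on Ptgs2 (1.19 and 1.39) and Ptges (-1.26 and -1.12) stay close under subtraction, that on Ptgs1 falls from 1.78 to 0.89, and the Ptgis intervals widen across 0.

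Ptgis, the prostacyclin synthase (chromosome 2, 167203194 to 167252150), was mainly a fibroblast transcript, and its epithelial TGF-β level was near the one the fibroblast share would supply. Fibroblast libraries held 43.1, 36.2 and 39.4 CPM under vehicle, 37.0, 29.6, 29.7 and 24.9 CPM under EC, 43.8, 42.0, 46.4 and 37.2 CPM under IPFc, and 41.4, 41.6, 48.8 and 49.2 CPM under TGF-β. The ranges overlapped between vehicle and each treatment and no fibroblast comparison passed (adjusted p = 0.239, 1.0 and 0.15). Without the fibroblast EC library of mouse 1, the EC difference was -0.43 with an adjusted p of 0.0485 and the TGF-β difference 0.36 with an adjusted p of 0.0367. Without all libraries of mouse 1 the TGF-β difference was 0.43 (adjusted p = 0.033), and after subtraction it was -0.03 (adjusted p = 1.0).

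Epithelial libraries held 3.55, 0.721, 0.984 and 2.10 CPM of Ptgis under vehicle and 11.3, 11.3 and 14.7 CPM under TGF-β, a 7.96-fold difference (log2 2.99 ± 0.35, adjusted p = 5.4e-07). Under IPFc they held 6.38, 6.59, 2.91 and 3.11 CPM (log2 1.44 ± 0.33, adjusted p = 0.0126). The fibroblast share would supply 10.9 to 14.7 CPM under TGF-β, 97.2 to 109% of the measured level, and 70.7 to 106% of it under IPFc. Under vehicle and EC, at lower levels, it would supply 87.7 to 265% and 81.9 to 164% of what was measured, that is, more than was measured in most of these libraries. After subtraction the TGF-β libraries held 0 to 0.431 CPM and the vehicle libraries 0 to 0.254 CPM, and neither the TGF-β nor the IPFc comparison was called (log2 1.46 and 3.19, adjusted p = 0.614 and 0.763). The IPFc call was also lost without the mouse block and without mouse 2.

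**Figure D3:**
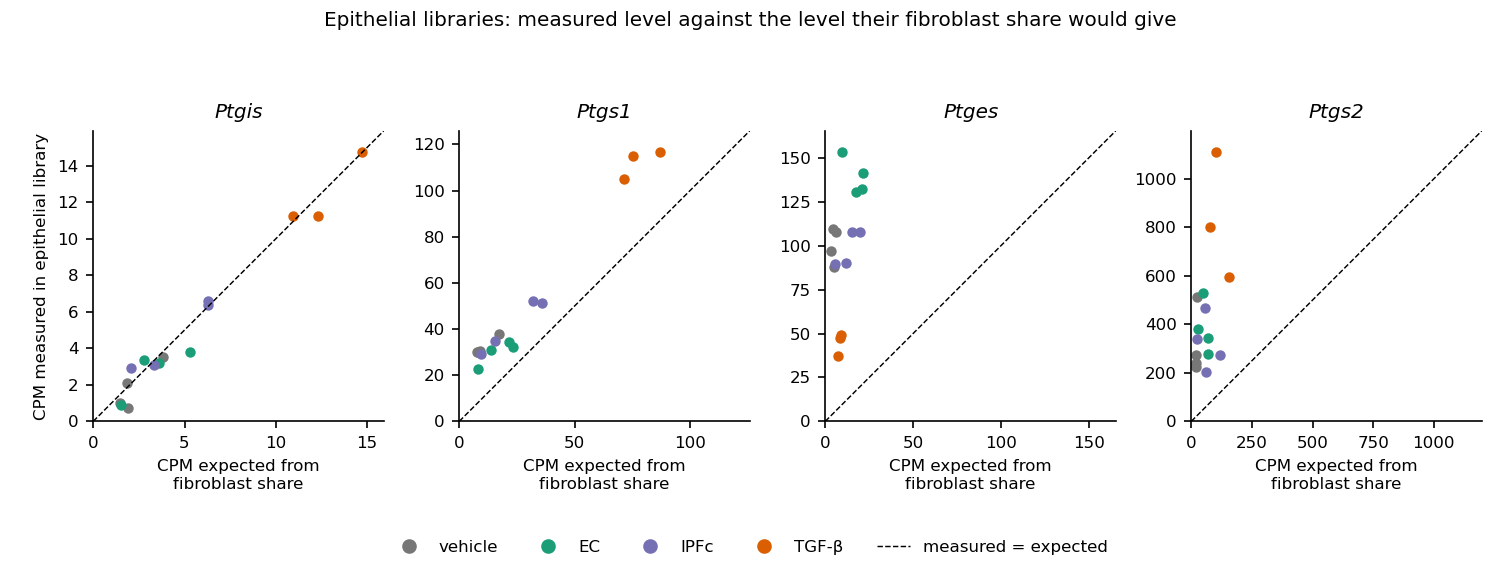
CPM measured in each of the 15 epithelial libraries against the CPM that its fibroblast share of the partner library would supply, for 4 members; the dashed line marks equal values. Ptgis lies on the line under TGF-β (97.2 to 109% of the measured level expected) and scatters to both sides of it at the lower levels of the other treatments, Ptgs1 lies above it with TGF-β libraries at 71.2 to 86.8 CPM expected and 105 to 117 measured, and Ptges and Ptgs2 lie far above it.

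Ptgds, which makes prostaglandin D2 from the same intermediate, had 7 reads in all 30 libraries together, in 6 libraries and at most 2 in any. A count of 0 allows up to 3 reads, or 0.148 CPM in the deepest and 0.587 CPM in the shallowest library, for counting error alone. Its level was thus not distinguishable from 0 in any group.

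Of the prostaglandin E2 receptors, Ptger1 and Ptger4 were detected at a few CPM in all 30 libraries, while Ptger2 and Ptger3 had 5 reads each over the 30 libraries, at most 1 per library. Ptger4, the cyclic AMP raising receptor that was detected, stood at 4.64, 5.88 and 6.28 CPM in fibroblast vehicle libraries and at 1.36, 2.24, 2.46 and 4.84 CPM in epithelial vehicle libraries. The lower 3 epithelial libraries lay below all fibroblast ones. No treatment comparison passed in either fraction (adjusted p 0.597 to 0.874 in epithelial and 0.136 to 1.0 in fibroblast cells), and the 95% interval of the epithelial TGF-β difference ran from -0.44 to 0.98. The 3′ part of Ptger4 overlaps Ttc33 on the other strand.

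Ptger1, a calcium-coupled receptor, stood at 1.30, 1.12, 0.886 and 1.37 CPM in epithelial vehicle libraries and at 1.75, 3.89 and 2.78 CPM under TGF-β, with no overlap. This 2.24-fold rise (log2 1.16 ± 0.40, adjusted p = 0.0249) rested on 14 to 48 reads a library and was lost without mouse 3, without mouse 4, with the title suffix R as a covariate (0.81 ± 0.43, adjusted p = 0.154) and after subtraction (0.72 ± 0.83, adjusted p = 0.57). In fibroblasts Ptger1 was at 3.54, 5.11 and 6.34 CPM under vehicle and at 0.391, 3.37, 4.08 and 2.98 CPM under EC (log2 -0.87 ± 0.34, adjusted p = 0.139), where the lowest value was 2 reads in the shallowest library. Ptger1 counts are uncertain, since reads from the opposite strand at its locus could not be told apart without strand.

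Hpgd, the enzyme that begins prostaglandin breakdown, was barely detected, with 83 reads over all libraries. Epithelial vehicle libraries held 4, 3, 5 and 20 reads (0.273, 0.240, 0.246 and 1.61 CPM), EC libraries 5, 0, 4 and 11 reads, IPFc libraries 1, 0, 1 and 1 reads, and TGF-β libraries 9, 5 and 7 reads. All IPFc libraries lay below all vehicle libraries, with 4 of 4 mice lower, and the difference missed the threshold (adjusted p = 0.0674). Fibroblast libraries held 0 to 4 reads, so Hpgd was not tested there.

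Between the fractions, over all treatments, the epithelial libraries were lower in Ptgs1 (log2 -2.12 ± 0.07, adjusted p = 3.49e-19), Ptgis (-3.19 ± 0.16, 2.08e-16), Ptger1 (-1.64 ± 0.18, 4.97e-09) and Ptger4 (-0.72 ± 0.17, 0.000559) and higher in Hpgd (3.58 ± 0.68, 7.19e-05). These 5 of 7 tested members compare with 73.8% of all 18364 tested genes called. Ptgs2 and Ptges did not pass (-0.15, 95% interval -0.39 to 0.08, and 0.10, interval -0.04 to 0.23). These averages joined differences of opposite sign, which were called in both directions only for Ptgs2. For Ptges the EC and IPFc differences of -0.18 and -0.23 did not pass (adjusted p = 0.258 and 0.134). Under TGF-β the epithelial libraries were higher in Ptgs2 (0.85 ± 0.25, adjusted p = 0.00597) and Ptges (0.53 ± 0.14, adjusted p = 0.00308), and under IPFc they were lower in Ptgs2 (-0.82 ± 0.23, adjusted p = 0.00343). After subtraction of the other fraction the differences over all treatments were -3.31 in Ptgs1, -8.15 in Ptgis, -2.37 in Ptger1, -0.94 in Ptger4 and 4.51 in Hpgd on the log2 scale. Those under TGF-β were then 1.16 ± 0.42 in Ptgs2 (adjusted p = 0.0348) and 0.72 ± 0.20 in Ptges (adjusted p = 0.00651). The Ptgs2 difference under IPFc was -1.06 ± 0.39 (adjusted p = 0.029). Removing a share of the higher fraction widens such a difference by construction. Subtracted epithelial Ptgis was at 0 to 0.878 CPM, so the size of its difference rests on values near 0.

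The response to TGF-β differed between the fractions for Ptgs1 (epithelial minus fibroblast 1.02 ± 0.20 on the log2 scale, adjusted p = 0.000317), Ptgs2 (1.09 ± 0.35, adjusted p = 0.0245) and Ptgis (2.47 ± 0.44, adjusted p = 0.000119), that is 3 of 7 against 23.2% of all genes, in a comparison where the median of all genes was itself 0.21. After subtraction none of the 3 passed, although the Ptgs2 difference was 1.31 ± 0.60 (adjusted p = 0.216). It was also lost without mouse 3 or mouse 4. The Ptges difference of 0.27 ± 0.20 was not called (adjusted p = 0.371, 95% interval -0.12 to 0.67). No member differed between fractions in its response to EC (0 of 7 against 0.37% of genes, with 2 at an unadjusted p under 0.05 and 0 by DESeq2) or to IPFc (0 of 7 against 0.049%, likewise with 2 and 0). These comparisons and those with vehicle share the vehicle libraries.

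Levels per kilobase of exon could be compared between genes only roughly. The length joins all annotated exons of a gene and can exceed the transcript expressed, which lowers the value. All levels given here are those of libraries before subtraction. In epithelial vehicle libraries the mean CPM per kb was 61.1 for Ptgs2, 22.9 for Ptges, 8.25 for Ptgs1 and 0.513 for Ptgis. The fibroblast share would supply 25.9 to 45.2% of this Ptgs1 and 87.7 to 265% of this Ptgis. In fibroblast vehicle libraries the mean was 77.5 for Ptgs2, 47.6 for Ptgs1, 20.1 for Ptges and 11.1 for Ptgis. The epithelial share would supply 9.8 to 38.3% of this Ptgs2 and 20.1 to 29.8% of this Ptges. Under TGF-β the fibroblast levels of Ptgs1 and Ptgs2 were near each other, at 75.6 and 75.3 CPM per kb, with Ptges at 6.47. In epithelial TGF-β libraries Ptgs2 reached 163 CPM per kb, beside 28.8 for Ptgs1 and 10.2 for Ptges. The fibroblast share would supply 65.6 to 74.5% of that Ptgs1 level. Both receptors stayed under 1 CPM per kb in every group, the highest mean being 0.908 for Ptger1 in fibroblast vehicle libraries.

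Other genes were ranked by the Pearson correlation of their log2 CPM with a member over the 15 fibroblast libraries, among 10070 genes. The closest to Ptgs1 were Lrrc27 (r = 0.974), Gnb4 (0.969) and Ednra (0.968), those to Ptges Il33 (0.978), Rtn4rl2 (0.974) and Rab27a (0.973), and those to Ptgis Abcd4 (0.93), Cercam (0.926) and Hoxb8 (0.925). For Ptgs2 the highest values were lower, for Lacc1 (0.844), Lif (0.823) and Ereg (0.8). The libraries shared 1 fibroblast line, 4 treatments and an epithelial share that moved with treatment, so these values are a description.

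Upstream of the cyclooxygenases, phospholipase genes moved in both directions. Of 16 tested genes of arachidonate release, 3 rose and 6 fell in TGF-β-treated epithelial cells (median log2 fold change -0.25, beside 0.03 for all genes, of which 41.1% were called), and 1 rose and 5 fell in fibroblasts (median -0.61, beside -0.02, with 19.2% called). Pla2g4a, the cytosolic phospholipase that frees arachidonate, rose in epithelial cells from 40.3 ± 7.16 to 99.1 ± 10.2 CPM (log2 1.22, adjusted p = 4.91e-08; 1.23 after subtraction) and in fibroblasts by 0.45 (0.25 after subtraction, no longer called). Pla2g4c, a related calcium-independent phospholipase, rose in IPFc-treated epithelial cells from 18.3 ± 2.64 to 108 ± 35.6 CPM (log2 2.52, adjusted p = 1.96e-08) and fell under TGF-β (-3.34), and both held after subtraction. Faah, which breaks down fatty acid amides, fell in epithelial cells under EC, IPFc and TGF-β (-0.69, -0.52 and -1.02), the IPFc call being lost after subtraction (-0.43, adjusted p = 0.0971). Under epithelial TGF-β, Mgll rose from 0.130 ± 0.147 to 0.683 ± 0.242 CPM (2.54, and 3.87 without a call after subtraction, adjusted p = 0.0851), Pla2g1b fell (-1.61, still called), and Pla2g4e fell from 19 reads over the 4 vehicle libraries to 2 over the 3 TGF-β libraries. In fibroblasts under TGF-β, Pla2g4c (-1.55), Pla2g4f (-4.24), Pla2g1b (-3.08) and Faah (-2.75) fell. The epithelial share fell there too, from 23.9 to 2.66%, and of these genes only Pla2g4f (-5.44) was called after subtraction.

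Among 13 other enzymes of prostanoid synthesis, 2 rose and 7 fell in TGF-β-treated epithelial cells (median -0.27, against 41.1% of all genes called), and 1 rose and 5 fell in TGF-β-treated fibroblasts (median -0.52, against 19.2%). Of the constitutive prostaglandin E2 synthases, Ptges2 was at 29.9 ± 3.13 CPM in epithelial vehicle libraries and fell by 0.70 on the log2 scale under TGF-β (adjusted p = 2.76e-05), and after subtraction by 0.95 (adjusted p = 3.36e-05). Its TGF-β response differed between the fractions (epithelial minus fibroblast -0.93, adjusted p = 0.000594; -1.39 after subtraction, adjusted p = 0.0036). Ptges3 was at 244 ± 20.4 CPM and fell by 0.27 under epithelial TGF-β (adjusted p = 0.0402; -0.15 after subtraction, adjusted p = 0.302). Neither was called in any other comparison with vehicle. Tbxas1, the thromboxane synthase, rose with TGF-β in fibroblasts from 0.618 ± 0.482 to 3.77 ± 0.619 CPM (log2 2.95, and 2.79 without a call after subtraction). It also rose in epithelial libraries, from 1 read over the 4 vehicle libraries to 32 over the 3 TGF-β libraries, and had too few reads to be tested there after subtraction. Hpgds, the haematopoietic prostaglandin D2 synthase, rose in IPFc-treated epithelial cells from 0.176 ± 0.111 to 0.975 ± 0.405 CPM (2.52), where mast cell markers had no reads, and after subtraction the difference was 2.56 without a call (adjusted p = 0.135). The carbonyl reductases Cbr2 and Cbr3 fell in epithelial cells under TGF-β (-2.81 and -1.92), as did the aldo-keto reductase Akr1c18 (-3.03), and these 3 calls held after subtraction. Cbr2 rose under EC (0.65, held). The calls of Cbr2 (0.52) and Akr1c18 (-2.28) under IPFc and of Cbr3 under EC (-0.50) were lost after subtraction, at log2 fold changes of 0.63, -2.36 and -0.52 that were no smaller. In fibroblasts under TGF-β, Cbr2 (-4.07), Cbr3 (-1.34) and Prxl2b (32 reads over 3 libraries under vehicle, 1 over 4 under TGF-β) fell along with the epithelial share, and only Cbr2 (-3.34) was called after subtraction, with Cbr3 at -0.35 and Prxl2b at -3.96.

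The receptors for the other prostanoids were largely undetected. Of 6 genes, 3 were tested, and the only call was a fall of Ptgir, the prostacyclin receptor, in TGF-β-treated fibroblasts, from 9.85 ± 1.27 to 3.14 ± 0.711 CPM (log2 -1.55, adjusted p = 0.000121), which was -1.89 and still called after subtraction. Ptgir stood at 0.290 ± 0.366 CPM in epithelial vehicle libraries. Ptgfr, the receptor for prostaglandin F2α, had at most 3 reads in any group and was not tested.

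The transporter Slco2a1, which takes prostaglandins into cells for breakdown, was higher in epithelial than fibroblast vehicle libraries (66.9 ± 7.91 and 39.1 ± 7.28 CPM). It fell in epithelial cells under EC to 35.6 ± 5.36 CPM (log2 -0.89) and under IPFc to 44.9 ± 7.94 CPM (-0.59), and rose under TGF-β to 106 ± 12.6 CPM (0.54). The EC and TGF-β calls held after subtraction (-0.94 and 0.95), and the IPFc difference was then -0.53 without a call (adjusted p = 0.154). In fibroblasts Slco2a1 fell under TGF-β (-3.06), and after subtraction the difference was -3.99 without a call (adjusted p = 0.0625). Ptgr1, a reductase that acts on prostaglandin and leukotriene products, fell in epithelial cells under EC (-0.66) and TGF-β (-1.35), and Cyp4f13 rose under TGF-β (1.09), and these 3 calls held after subtraction. Of the 9 tested genes of transport and breakdown, 3 rose and 2 fell under epithelial TGF-β (median 0.01, against 41.1% of all genes called), and none rose and 2 fell under epithelial EC (against 4.41%).

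In the lipoxygenase branch, which draws on the same arachidonate, 2 genes rose in IPFc-treated epithelial cells. Alox15, a lipoxygenase known to respond to IL-4 and IL-13, rose in epithelial cells from 0.589 ± 0.463 to 10.2 ± 7.55 CPM (log2 4.09, adjusted p = 8.38e-07), and Alox12e rose from 0.105 ± 0.162 to 4.75 ± 2.65 CPM (5.53, adjusted p = 1.18e-05). These were 2 of 15 tested genes (against 4.1% of all genes called), both still called after subtraction, and the other 13 were not called. Under epithelial TGF-β, Alox12 (1.80) and Ephx2 (3.54) rose and 5 genes fell, 7 of 15 against 41.1% of all genes. These were Ptgr1, Ltb4r2 (-2.48), and Alox5, Alox15 and Ltb4r1, whose reads went from 19, 36 and 33 over the 4 vehicle libraries to 1, 5 and 2 over the 3 TGF-β libraries. The calls of Alox12, Ephx2, Ptgr1 and Ltb4r1 held after subtraction, and those of Ltb4r2 (-2.99), Alox5 (-3.30) and Alox15 (-2.25) did not (adjusted p = 0.0751, 0.092 and 0.0509). Ggt5 fell under epithelial EC (-1.73, and -1.85 without a call after subtraction). In fibroblasts Ephx2 rose under TGF-β (0.82) and fell under EC (-0.66), and Alox5 and Cysltr1 fell under TGF-β from 12 and 13 reads over the 3 vehicle libraries to 1 and 0 over 4. After subtraction none of these fibroblast differences was called (Ephx2 0.47 and -0.18, Alox5 -4.17), and Cysltr1 had too few reads to be tested.

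**Figure D4:**
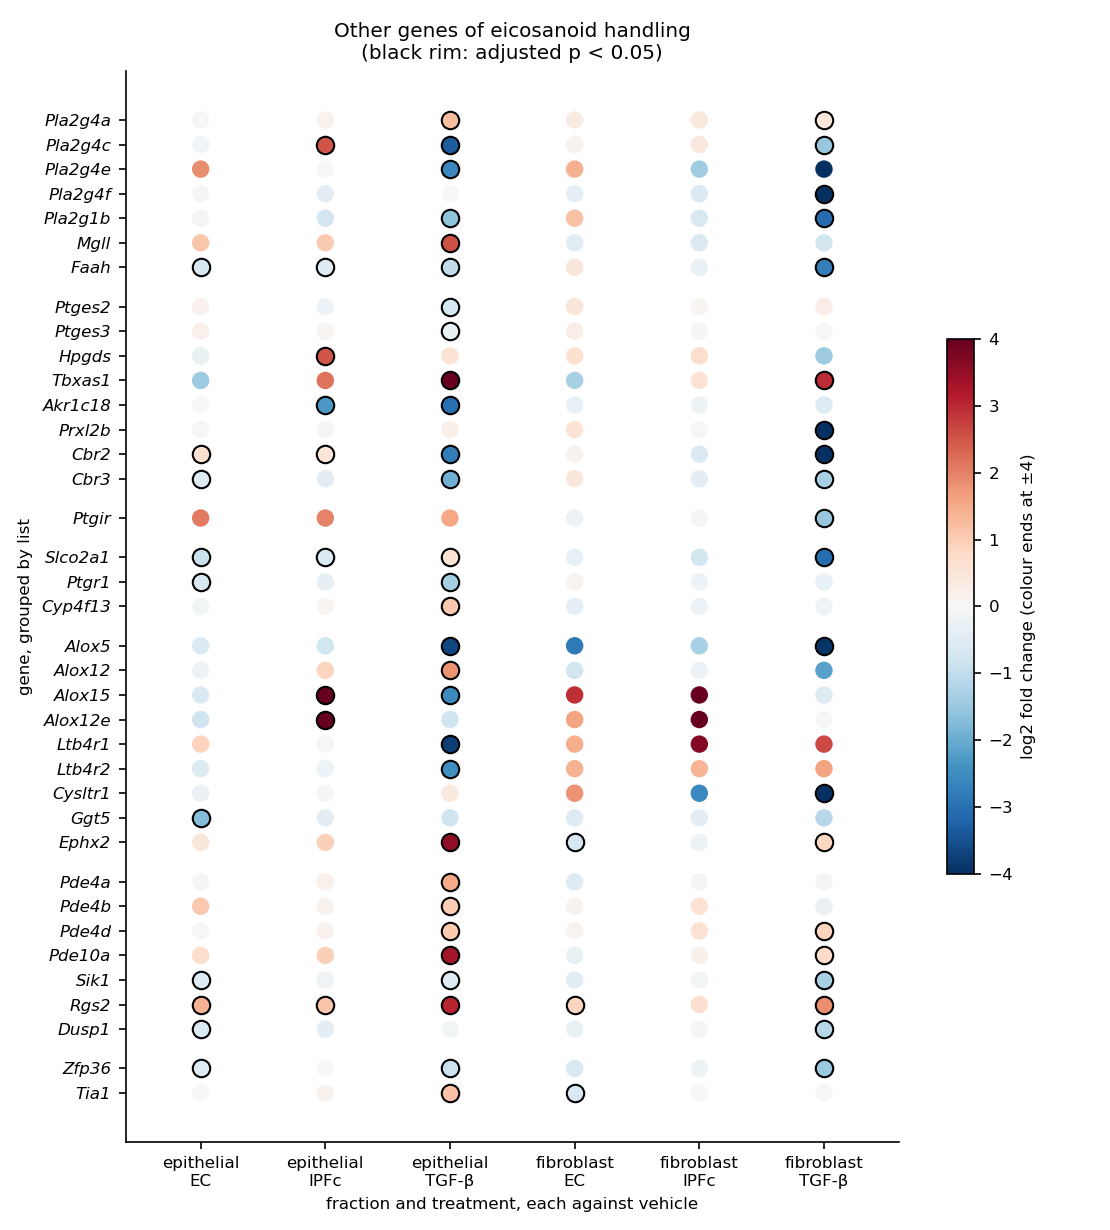
Log2 fold change against vehicle (colour, which ends at ±4) for the named genes of the other pathway lists in 6 comparisons; a black rim marks an adjusted p under 0.05 and a missing point a gene not tested. Most rims fall in the epithelial TGF-β and fibroblast TGF-β columns, and the deep red points of the epithelial IPFc column with a rim are Pla2g4c, Hpgds, Alox15 and Alox12e.

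Genes that respond to cyclic AMP, the messenger downstream of Ptger2 and Ptger4, moved in both directions. Of 15 tested, 6 rose and 1 fell in TGF-β-treated epithelial cells (median 0.19, against 41.1% of all genes called), and 3 rose and 2 fell in TGF-β-treated fibroblasts (median 0.15, against 19.2%). The phosphodiesterases that degrade cyclic AMP rose in epithelial cells under TGF-β (Pde4a from 4.17 ± 1.39 to 11.5 ± 0.960 CPM, and by log2 fold change Pde4b 1.03, Pde4d 1.03 and Pde10a 3.32), the Pde4a and Pde4d calls holding after subtraction (Pde4b 1.28, adjusted p = 0.0538; Pde10a not tested), and in fibroblasts Pde4d (0.92) and Pde10a (0.78) rose. Rgs2, a brake on G protein signalling, rose in epithelial cells under EC (1.38), IPFc (1.13) and TGF-β (3.06) and in fibroblasts under EC (0.88) and TGF-β (1.86). Only the fibroblast TGF-β rise of Rgs2, from 8.99 ± 3.56 to 31.5 ± 6.75 CPM, was called after subtraction, while its epithelial differences were 1.23, 0.19 and 0.93 and its fibroblast EC difference 1.29 without a call. Sik1 and Dusp1 fell in epithelial cells under EC (-0.53 and -0.57) and in fibroblasts under TGF-β (-1.32 and -1.13), and Sik1 fell under epithelial TGF-β too (-0.51), and of these only the fibroblast Dusp1 fall was called after subtraction. The epithelial EC differences of Sik1 and Dusp1 were then -0.57 and -0.62 (adjusted p = 0.051 and 0.0506).

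Of 8 regulators of Ptgs2 mRNA stability and translation, 3 rose and 1 fell under epithelial TGF-β (median 0.00, against 41.1% of all genes called). Zfp36, which speeds the decay of such mRNAs, fell in epithelial cells under EC (log2 -0.51) and TGF-β (-0.85) and in fibroblasts under TGF-β, from 270 ± 114 to 87.3 ± 23.8 CPM (-1.49), and each call held after subtraction. Tia1, a translational silencer, rose under epithelial TGF-β (1.19, still called after subtraction) and fell under fibroblast EC (-0.64, and -0.43 without a call after subtraction).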

How the data were processed

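Bulk RNA was sequenced from 30 libraries (strand-preserving library kit) after trimming with Trimmomatic 0.30. The authors deposited raw read counts per gene, 1 table per library. The submitters' processing notes name GRCm39 and the study's methods GRCm38, and the aligner and counter are not given in the sources used here, so no coordinate comes from the count files. Gene positions and promoters are those of RefSeq on GRCm38.p6, and exon lengths are those of GENCODE on GRCm39. Groups and mouse numbers came from the labels.

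Levels are CPM of each library's counted reads. Genes averaging 1 or more raw reads per library were tested with edgeR 4.0.16 (R 4.3.3; quasi-likelihood, TMM scaling) with mouse as a block, in 1 fit per fraction over 15 libraries and in 1 fit over all 30 for fraction contrasts. The fit over all 30 used 1 mouse term for both fractions and did not pair the fractions of a culture. The SE and p-values of the fraction contrasts rest on that simplification. A joint fit per fraction was used so that all treatments shared 1 estimate of the spread, which fits of 2 groups estimate poorly. Fits of 2 fibroblast groups gave no finite estimate of how the spread varied between genes, whereas fits of 2 epithelial groups did. Adjusted p-values are Benjamini-Hochberg values over all tested genes, and 95% intervals are the estimate ± 1.96 SE. The study's own test was a paired DESeq2 analysis (1.34.0), and DESeq2 1.42.0 was run as an alternative. The mouse number marks epithelium of 1 mouse, and deviations from group means correlated at a mean r of 0.281 (epithelial) and 0.306 (fibroblast) between libraries of the same mouse, against -0.0907 and -0.0996 between mice. Deviations sum to 0 within a group, so the values between mice are pushed below 0 by construction and add nothing of their own. No 2 libraries of a group agreed within sampling noise (chi-square per degree of freedom 5.48 to 76.9 over 42 pairs). The share of the other fraction is the median ratio of its 12 markers, of those at 50 CPM or more in the partner, between a library and the other fraction of the same culture. A library without a partner used the mean of the other libraries. The share times the partner's CPM was subtracted, and the remainder, set to 0 where negative and rounded, was tested again. Subtraction assumes that all markers come from the other fraction and that the partner library holds only that fraction. The partner libraries were mixed, so part of a fraction's own signal was removed as well. A culture's fractions are then not independent.

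Other alternatives were DESeq2 size factors, no scaling factor, no filter on low counts, a minimum mean count of 10, no block, the suffix R in 16 library titles (its meaning is not stated) as a covariate, fits of only 2 groups, and leaving out each mouse. Leaving out the shallowest library, and subtraction in the contrasts between fractions, were chosen after seeing the data. The tests were checked on simulated data. The members and gene lists were chosen with earlier results of these data known. Genes named besides the 10 members were 7 further genes of the pathway whatever their values (Pla2g4a, Ptges2, Ptges3, Tbxas1, Ptgir, Ptgfr and Slco2a1), list genes with a call and an absolute log2 fold change of at least 1 against vehicle, and the 3 genes most correlated with each member above 10 CPM (prior count 2). Counting error limits genes under about 3 reads a library, and intervals of counts cover counting error only.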

Additional observations from a re-analysis of the deposited data

Results flagged for a closer look

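Of 39 groups of 4 libraries tested over the members, 3 held a library far from the other 3, where chance alone gives about 1 in 20 groups. Ptgs1 stood at 37.9 CPM in the epithelial vehicle library of mouse 1, against 29.8 to 30.4 CPM in the others, and the fibroblast share of that library was also the highest of its group, at 8.82%. Ptgs2 stood at 583 CPM in the fibroblast TGF-β library of mouse 2, against 298 to 340 CPM. Hpgd stood at 1.61 CPM (20 reads) in the epithelial vehicle library of mouse 4, against 0.240 to 0.273 CPM. The response to TGF-β differed between the fractions by test for Ptgs1 (epithelial minus fibroblast 1.02 on the log2 scale), Ptgs2 (1.09) and Ptgis (2.47), and none of the 3 differences passed after subtraction of the other fraction (adjusted p = 0.456, 0.216 and 0.653).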

How the results depend on the processing

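The directions of all calls on members held under every alternative, and the TGF-β effects on epithelial Ptgs1, Ptgs2 and Ptges and on fibroblast Ptges and the rise of epithelial Ptges under EC kept their side of the threshold in all of them. Without the replicate block, members called went from 2 to 1 under epithelial EC and from 1 to 0 under epithelial IPFc, and all genes called fell to 391 and 297 in these comparisons, to 321 and 35 under fibroblast EC and IPFc, and to 10 for the difference between fractions under EC. Other member calls were the same without the block. After subtraction of the other fraction 1 member was called under epithelial EC, 0 under epithelial IPFc, 3 under epithelial TGF-β, 0 under fibroblast EC, 1 under fibroblast TGF-β and 0 for the difference between fractions under TGF-β. All genes called were then 366, 195 and 4801 in epithelial cells under EC, IPFc and TGF-β, 28, 0 and 661 in fibroblasts, and 19 and 1261 for the differences under EC and TGF-β. The fitted fold changes of Pla2g4c (1.22) and Faah (6.37) under fibroblast TGF-β reversed after subtraction, without a call.

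With the title suffix R as a covariate, 0 members were called under epithelial IPFc and the Ptger1 call under epithelial TGF-β was lost, and all genes called were 537 and 44 under fibroblast EC and IPFc and 616 and 27 for the differences between fractions under EC and IPFc. Without a filter on low counts, 2 members were called under fibroblast EC (Ptges and Ptger1), and all genes called were 1118 under epithelial IPFc, 2048 and 251 under fibroblast EC and IPFc, and 595 and 51 for these differences. Without the shallowest library (fibroblast EC, mouse 1), 2 members were called under fibroblast EC (Ptges and Ptgis), and all genes called were 1983 and 263 under fibroblast EC and IPFc and 377 and 17 for the differences. DESeq2 called 2040 and 182 genes under fibroblast EC and IPFc and 581 and 46 for the differences. A fit of 2 groups alone called 229 genes under fibroblast IPFc, library totals without a scaling factor 42 and a minimum mean count of 10 gave 181 for the difference under EC. Within EC libraries alone, 3 members differed between fractions.

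Leaving out each mouse in turn gave 1 to 2 members under epithelial EC, 0 to 1 under epithelial IPFc, 4 to 5 under epithelial TGF-β, 2 to 3 under fibroblast TGF-β, 5 to 7 between fractions and 2 to 4 for the difference under TGF-β. All genes called ranged from 421 to 727, from 352 to 801 and from 5752 to 6941 in epithelial cells under EC, IPFc and TGF-β, from 217 to 2053, from 14 to 128 and from 2148 to 4089 in fibroblasts, and from 4 to 181, from 5 to 8 and from 2274 to 4169 for the differences between fractions. The cause of these changes was not tested. Depth limits Ptgds, Ptger2, Ptger3 and Hpgd, and few reads limit both detected receptors.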
